A study of Bos taurus with 5 samples.

Results

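Unplaced sequence is assembled genome sequence that has not been assigned to a chromosome. In mammalian assemblies it is known to hold many repeats, duplicated genes and members of large gene families, whose near-identical copies are hard to position and hard to tell apart with short reads. Loci on the unplaced sequences of the cattle genome were followed here in leukocytes, the white cells of the blood. They were taken as every assembled locus that the authors' table lists on a sequence named Un, and kept where the sum of its transcripts averaged at least 1 FPKM over 5 libraries. FPKM counts fragments relative to the length of the transcript and to the depth of the library. By this rule 895 of 3382 listed unplaced loci were kept (26.5%), among 13871 kept loci in all. On chromosomes 12976 of 28516 listed loci were kept (45.5%). Of the unplaced loci that were not kept, 1820 were listed at 0 in all 5 libraries. The rule used the mean level and compared no libraries. A mean of 1 FPKM can be reached through 1 high library alone. Such loci were kept only because of that library, so the rule was not neutral to differences.

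Each library stood for 1 cattle population, and the labels do not say whether it came from 1 animal or from several. The crossbred populations were 75C, with 75% Holstein and 25% Iranian native ancestry, 50CSH, bred from Holstein sires and native dams, and 50CSN, bred from native sires and Holstein dams, both at 50%. Holstein is a dairy breed. The purebred populations were labelled H and N, letters that the labels do not spell out. A difference between 2 populations therefore had no replicate check, and p-values of the comparison of 3 crossbred with 2 purebred libraries measure only the spread among these 5 libraries. Differences are given on the scale of log2(FPKM + 1), which understates the change of low loci, and libraries are called 2-fold apart at a difference of at least 1 on that scale. The depth of the libraries in reads is not given by these values. A rough ratio from the smallest values of single-transcript loci put 75C at 0.94, 50CSH at 1.02, 50CSN at 1.16 and N at 1.19 times the depth of H.

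The tables pair no locus with a gene symbol, so loci are named by the authors' locus number (XLOC), their Ensembl transcript ID where one is given, and their position. The cell type could not be checked against marker genes for the same reason, and fewer cells of a type cannot be told apart from less RNA per cell in bulk leukocytes. The 895 loci lay on 515 sequences, of which 367 held a single kept locus, 82 held 2, 58 held 3 to 9 and 8 held 10 or more. The best filled were Un.004.171 with 18 kept loci, Un.004.16 with 17, and Un.004.1 and Un.004.56 with 16 each. At the edge of the rule, XLOC_028799 (Un.004.2135:1978-8322) was just inside with a mean of 1.01 FPKM, and XLOC_029430 (Un.004.3253:10925-11527) was just outside with a mean of 0.987 FPKM.

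Unplaced loci were shorter and less often annotated than loci on chromosomes. An Ensembl transcript ID was attached to 525 unplaced loci (58.7%), against 85.9% of chromosomal loci. A single assembled transcript made up 409 unplaced loci (45.7%), against 25.7% of chromosomal loci. The median span was 9717 nucleotides for unplaced loci and 28264 nucleotides for chromosomal loci, and spans under 300 nucleotides made up 4.58% and 1.55%. The median level was 7.07 FPKM for unplaced loci and 11.1 FPKM for chromosomal loci.

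Unplaced loci held 6.22% of the summed FPKM of all loci in 75C, 5.42% in 50CSH, 5.36% in 50CSN, 6.54% in H and 6.80% in N. The 2 crosses with 50% of each breed were lowest and the 2 purebreds highest. A single locus carried much of this. XLOC_029890 (Un.004.433:17627-17742), which has no Ensembl ID and spans little more than the length of a read, was at 19834 FPKM in 75C, 10664 in 50CSH, 13437 in 50CSN, 15990 in H and 20012 in N. It made up 24.9 to 40.0% of the summed FPKM of the unplaced loci, and its highest and lowest libraries were 0.91 apart on the log2 scale. Without it the share was 3.97% in 75C, 4.13% in 50CSH, 3.84% in 50CSN, 4.46% in H and 4.20% in N, and 75C then stood below 50CSH. The values of such short loci rest on few positions, and FPKM divides by their length. Over loci with an Ensembl ID alone, unplaced loci held 3.21% in 75C, 3.28% in 50CSH, 3.12% in 50CSN, 3.53% in H and 3.39% in N.

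The next highest loci varied less. XLOC_028413 (Un.004.16:781941-782049, no Ensembl ID) lay between 4286 and 5251 FPKM. XLOC_028528 (ENSBTAT00000002326, Un.004.171:145491-147628) was at 2658 FPKM in 75C, 2650 in 50CSH and 3058 in 50CSN, and at 1892 in H and 1938 in N. All 3 crossbreds stood above both purebreds at this locus, on average by 0.54 ± 0.15 on the log2 scale (SE, 3 crossbred against 2 purebred libraries), with a limma adjusted p of 0.15. XLOC_031097 (ENSBTAT00000023743, Un.004.987:39511-55553) lay between 1449 and 1983 FPKM, and XLOC_031066 (Un.004.974:29643-39893), with 2 Ensembl IDs, between 954 and 1597 FPKM. The steadiest loci averaging 10 FPKM or more were XLOC_031059 (ENSBTAT00000012930) at 49.8 to 53.3 FPKM, XLOC_028407 (ENSBTAT00000010275) at 14.8 to 15.9 FPKM and XLOC_029268 (Un.004.29:14998-101280) at 132 to 145 FPKM, each with a range of at most 0.13 on the log2 scale.

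In each of the 10 pairs of libraries, a larger share of unplaced than of chromosomal loci was at least 2-fold apart. Between H and N, 92 unplaced loci were apart (10.3%), against 2.84% of chromosomal loci and 3.32% of all kept loci. H was higher at 38 of them (4.25% of unplaced loci, against 1.46% of all loci) and lower at 54 (6.03%, against 1.86%). Among loci averaging 5 FPKM or more, however, H was higher at 25 and lower at 20. Between 50CSH and 50CSN, the reciprocal crosses, 78 were apart (8.72%), against 2.41% of chromosomal and 2.82% of all loci. 50CSH was higher at 38 (4.25%, against 1.25% of all loci) and lower at 40 (4.47%, against 1.56%). With a mean of 5 FPKM or more it was higher at 22 and lower at 17. The share of unplaced loci was 3.62 times that of chromosomal loci in the first pair and 3.61 times in the second.

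75C differed by 2-fold from 50CSH at 81 unplaced loci (9.05%, against 3.6% of all loci) and from 50CSN at 89 (9.94%, against 3.58%). It stood higher at more of them than lower. Against 50CSH it was higher at 59 and lower at 22 (6.59% and 2.46%, against 2.54% and 1.07% of all loci). Against 50CSN it was higher at 54 and lower at 35 (6.03% and 3.91%, against 2.22% and 1.36% of all loci).

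Against the purebreds the balance differed between the crosses. 75C was apart from H at 82 loci (9.16%, against 3.52% of all loci). It was higher at 53 and lower at 29 (5.92% and 3.24%, against 1.65% and 1.87% of all loci). From N it was apart at 111 (12.4%, against 4.71%). There it was higher at 54 and lower at 57 (6.03% and 6.37%, against 2.09% and 2.62%). These became 34 and 23 with a mean of 5 FPKM or more. 50CSH was apart from H at 106 (11.8%, against 5.9%), higher at 44 and lower at 62 (4.92% and 6.93%, against 1.73% and 4.17%). From N it was apart at 111 (12.4%, against 5.72%), higher at 43 and lower at 68 (4.80% and 7.60%, against 1.48% and 4.24%). 50CSN was apart from H at 127 (14.2%, against 5.8%), higher at 53 and lower at 74 (5.92% and 8.27%, against 2.15% and 3.66%). From N it was apart at 104 (11.6%, against 5.86%). There it was higher at 31 and lower at 73 (3.46% and 8.16%, against 1.82% and 4.04%), or 42 and 59 after quantile normalization. Both 50% crosses were lower than a purebred at more loci than they were higher, among unplaced loci as among all loci, while 75C was higher than H at more unplaced loci than it was lower. Over the 10 pairs, which share libraries, the share among unplaced loci was 2.13 to 3.62 times that among chromosomal loci. Counted per transcript instead of per locus, it was 1.24 to 1.77 times.

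**Figure D1:**
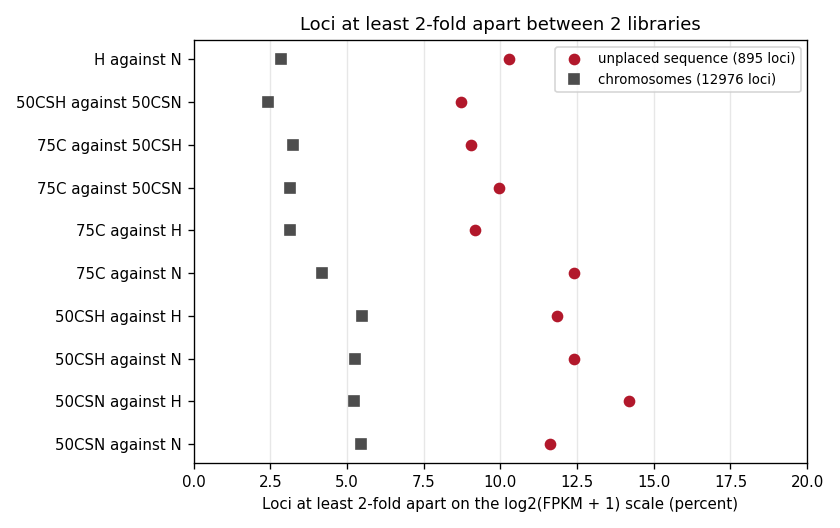
Percent of kept loci at least 2-fold apart on the log2(FPKM + 1) scale for each pair of libraries, on unplaced sequence (red circles, 895 loci) and on chromosomes (grey squares, 12976 loci). In all 10 pairs the unplaced loci lie to the right, between 8.72 and 14.2%, and the chromosomal loci between 2.41 and 5.49%.

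Over all 5 libraries, the highest and the lowest were at least 2-fold apart at 266 of 895 unplaced loci (29.7%), against 13.3% of chromosomal loci and 14.4% of all kept loci. They were at least 4-fold apart at 89 unplaced loci (9.94%), against 2.88% of chromosomal loci. The median range was 0.65 for unplaced and 0.47 for chromosomal loci on the log2 scale. These are counts of loci within 5 libraries, and loci of one sequence or one span are not independent of each other. In both classes they include loci that passed the filter through a single high library.

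The excess was found at loci with and without an Ensembl ID. Among loci without an Ensembl ID, 45.9% of 370 unplaced and 32.9% of 1835 chromosomal loci had a 2-fold range. Among loci with one, the figures were 18.3% of 525 and 10.1% of 11141. Unannotated loci averaging from 10 to below 30 FPKM had a 2-fold range in 45.1% of unplaced and 25.1% of chromosomal cases. Annotated loci with a mean below 10 FPKM reached 28.5% on unplaced sequence and 15.2% on chromosomes. At annotated loci that averaged 10 FPKM or more the 2 classes were close, with 22 of 265 unplaced loci (8.30%) and 6.46% of 6515 chromosomal loci.

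The share also differed by span in both classes. Loci that span under 300 nucleotides had a 2-fold range in 75.6% of unplaced and 67.7% of chromosomal cases. At spans from 10000 to below 100000 nucleotides the figures were 16.2% and 9.75%. At spans of at least 100000 nucleotides 22 of 51 unplaced loci (43.1%) had a 2-fold range, against 11.1% of chromosomal loci, and the long spans of Un.004.43, Un.004.100 and Un.004.5 hold several of these 22.

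**Figure D2:**
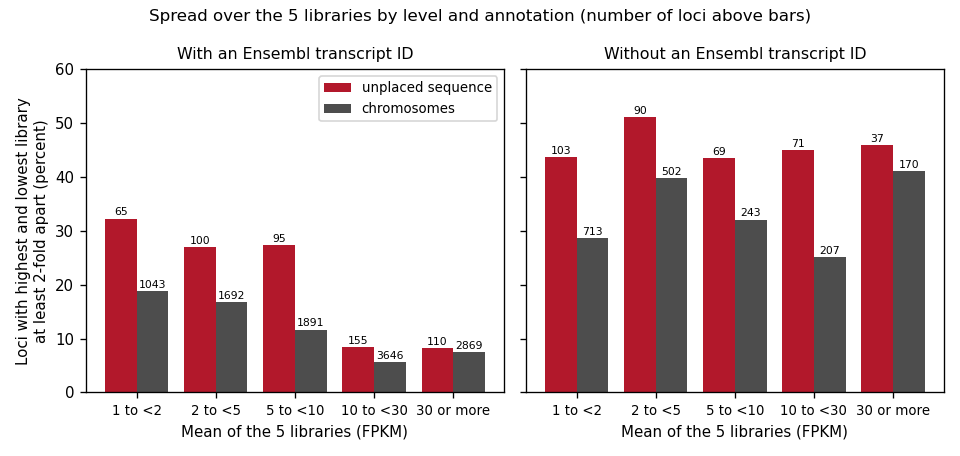
Percent of loci whose highest and lowest libraries were at least 2-fold apart on the log2(FPKM + 1) scale, by mean level in FPKM, for loci with (left) and without (right) an Ensembl transcript ID, on unplaced sequence (red) and on chromosomes (grey), with the number of loci above each bar. On the left the unplaced bars fall from 32.3% at 1 to below 2 FPKM to 8.18% at 30 FPKM or more, and on the right they stay between 43.5 and 51.1%.

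Among the 266 loci with a 2-fold range, N was the highest library at 80 (30.1%), H at 58 (21.8%) and 75C at 53 (19.9%). 50CSH was highest at 42 (15.8%) and 50CSN at 33 (12.4%). The lowest library, where it was a single one, was 50CSN at 70 (26.3%), 50CSH at 60 (22.6%) and H at 50 (18.8%). N was lowest at 45 (16.9%) and 75C at 24 (9.02%). On chromosomes N was also the most frequent highest library, at 30.3% of loci, but the most frequent lowest one was 50CSH. At 37 unplaced loci (4.13%, against 1.26% on chromosomes) a single library stood at least 2-fold above all the others, 75C at 15 of them and N at 11. Of the 163 such chromosomal loci, N was the single library at 56, H at 39 and 75C at 32. At 32 loci (3.58%, against 0.825%) a single library stood at least 2-fold below all the others, 50CSN at 10 of them. Of the 107 such chromosomal loci, H was the single library at 28, 50CSH at 21 and 50CSN at 20.

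An unplaced locus was listed at 0 in at least 1 library at 38 loci (4.25%), against 1.44% of chromosomal loci. Of the 38, 33 had a single transcript and 13 had an Ensembl ID. The zeros were spread over the libraries, with 15 loci in 75C, 14 in 50CSH, 15 in 50CSN, 14 in H and 10 in N. A listed 0 in such tables can be a failed estimate, so no fold is given against it. Counts, ranges and the limma fit take it as 0 FPKM.

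Neighbouring loci on Un.004.309 shared 1 such pattern. XLOC_029369 (Un.004.309:28275-28878) was at 123.5 FPKM in 75C, 29.7 in 50CSH and 28.5 in H, and was listed at 0 in 50CSN and N. XLOC_029371 (Un.004.309:37404-37584) was at 106 FPKM in 75C, 30.7 in 50CSH and 23.4 in H, and XLOC_029372 (Un.004.309:37878-38103) at 19.1 in 75C, 5.76 in 50CSH and 5.48 in H, both listed at 0 in 50CSN and N. XLOC_029373 (Un.004.309:42093-42558) was at 4.35 FPKM in 75C, 2.72 in 50CSH and 1.22 in H, with the same zeros. At all 4 loci 75C was highest, followed by 50CSH and then H. None of the 4 has an Ensembl ID, and each has 1 transcript.

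The annotated locus of the same sequence did not share the zeros. XLOC_029370 (ENSBTAT00000036965, Un.004.309:58460-151914) was at 3.02 FPKM in 75C, 2.95 in 50CSH and 3.23 in 50CSN, and at 0.71 in H and 1.65 in N. In the authors' deposited table, transcripts of XLOC_029369, XLOC_029371 and XLOC_029373 were called in 75C against 50CSN and in 75C against N.

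Elsewhere the zeros ran the other way. XLOC_030257 (Un.004.561:19454-76064, 6 transcripts) was listed at 0 in 75C and was at 17.7 FPKM in 50CSH, 9.11 in 50CSN, 0.505 in H and 17.2 in N. XLOC_028032 (Un.004.122:271758-294739) was listed at 0 in 75C and was at 16.0 FPKM in 50CSH, 4.44 in 50CSN, 0.33 in H and 23.6 in N. Both were low in 75C and H and higher in the other 3 libraries. XLOC_030083 (Un.004.5:960399-960930) was listed at 0 in 75C and H and was at 3.97 FPKM in 50CSH, 3.64 in 50CSN and 1.66 in N.

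XLOC_029157 (ENSBTAT00000045894, Un.004.27:128390-411442) was at 13.1 FPKM in 50CSN and 17.6 in N, and at most 0.016 FPKM in the other 3 libraries. XLOC_029907 (Un.004.4413:6738-9568) behaved alike, with 9.44 FPKM in 50CSN, 24.4 in N and a listed 0 in 75C, 50CSH and H.

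Other loci were above 0 in 1 or 2 libraries and in a different combination. XLOC_030966 (ENSBTAT00000050785, Un.004.9153:2240-2485) had the widest range of the 895 loci when a listed 0 is taken as 0 FPKM, with 693 FPKM in 50CSH, 119 in 50CSN and a listed 0 in 75C, H and N. XLOC_028310 (Un.004.15:537424-537591) was at 187 FPKM in 50CSH and 105 in H, and was listed at 0 in 75C, 50CSN and N. At 3 loci only N was above 0. XLOC_028167 (ENSBTAT00000025313, Un.004.137:19967-21019) was at 9.42 FPKM in N, XLOC_028396 (ENSBTAT00000059362, Un.004.16:276568-288449) at 35.7 FPKM and XLOC_030848 (Un.004.8400:12-2447) at 11.7 FPKM, each with a listed 0 in 75C, 50CSH, 50CSN and H.

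**Figure D3:**
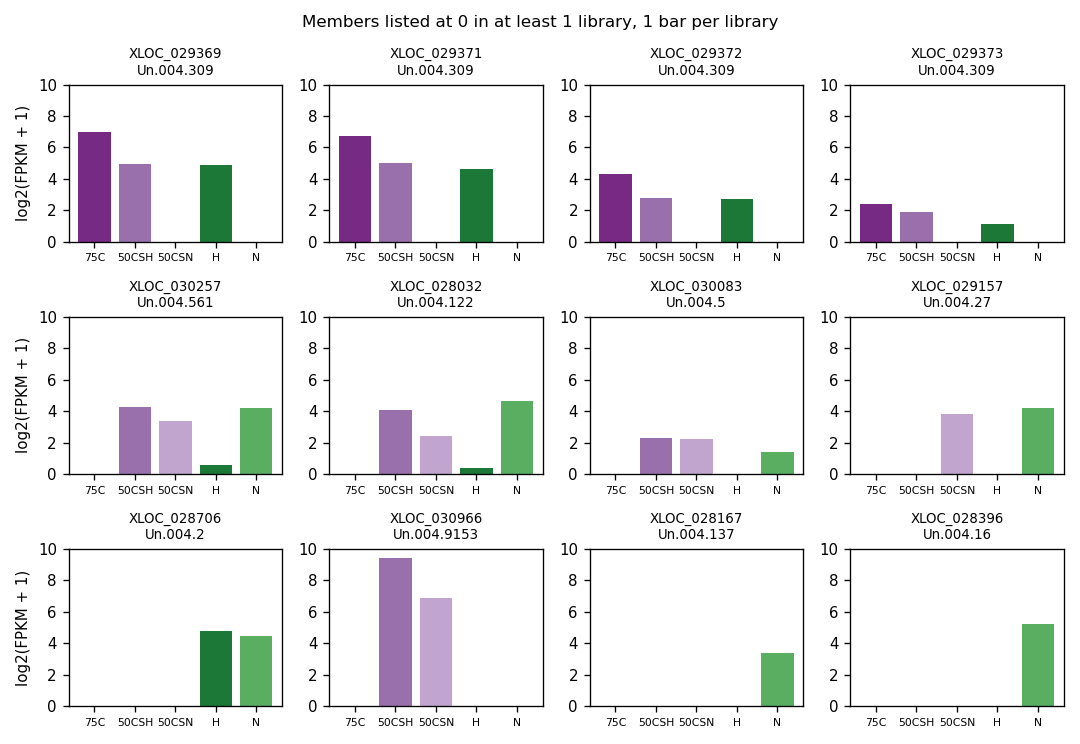
Level of 12 unplaced loci listed at 0 in at least 1 library, as log2(FPKM + 1), with 1 bar per library in the order 75C, 50CSH, 50CSN, H and N. The first row shows the 4 neighbouring loci of Un.004.309 with no bar in 50CSN and N, and the second row 4 loci with little or nothing in 75C and H. The third row shows the locus listed at 0 in the 3 crossbreds, the one above 0 in 50CSH and 50CSN only, and 2 above 0 in N only.

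Sequences with several kept loci differed in whether these moved together. On Un.004.100, 8 of 8 loci had a 2-fold range, and the median locus stood 1.05 above its 5-library mean in 50CSN and 0.77 below it in H on the log2 scale. XLOC_027775 (Un.004.100:17161-289287), with 2 Ensembl IDs, was at 3.90 FPKM in 75C, 6.25 in 50CSH and 20.6 in 50CSN, and at 4.10 in H and 9.82 in N. Beside it XLOC_027784, in the same span, was lowest in 50CSN with 0.44 FPKM and highest in N with 4.09 FPKM. On Un.004.34, N stood 1.38 above the mean in the median locus.

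There the 4 shortest loci were each highest in N. XLOC_029480 (Un.004.34:159455-159623) was at 24.2 FPKM in 75C, 6.81 in 50CSH and 15.2 in 50CSN, and at 8.76 in H and 62.1 in N. XLOC_029482 (Un.004.34:168049-168182) was at 72.9 FPKM in 75C, 82.6 in 50CSH, a listed 0 in 50CSN, 191 in H and 304 in N. XLOC_029483 and XLOC_029484, the 2 further short ones, were at 39.8 and 26.9 FPKM in N and at most 20.2 and 14.7 FPKM in the other libraries. The annotated XLOC_029476 (ENSBTAT00000008205) of this sequence lay between 9.15 and 11.9 FPKM, so its range was 0.35 on the log2 scale.

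On Un.004.5, 6 of 6 loci had a 2-fold range, but not in the same pattern. XLOC_030072 (Un.004.5:12397-19305) was at 79.3 FPKM in 75C, 54.9 in 50CSH and 54.5 in 50CSN, and at 32.7 in H and 21.4 in N, so each crossbred stood above both purebreds. XLOC_030078 (Un.004.5:756811-759720) was at 0.61 FPKM in 75C, 2.53 in 50CSH and 4.82 in 50CSN, and at a listed 0 in H and 1.89 in N. XLOC_030080 (ENSBTAT00000035484, Un.004.5:1216837-1662618) was at 1.60 FPKM in 75C, 3.69 in 50CSH and 4.46 in 50CSN, and at 0.67 in H and 5.93 in N. The last 2 shared low values in 75C and H with XLOC_030083 of the same sequence.

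Other sequences were level. On Un.004.241, 0 of 10 loci had a 2-fold range, and on Un.004.242 and Un.004.41 0 of 6 and 0 of 5. On Un.004.16, the second best filled, 2 of 17 did, and the median locus stayed within 0.05 of its mean in every library. On Un.004.241, XLOC_028955 (ENSBTAT00000042556) lay between 68.6 and 78.4 FPKM and XLOC_028950 (ENSBTAT00000019692) between 14.2 and 15.8 FPKM.

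**Figure D4:**
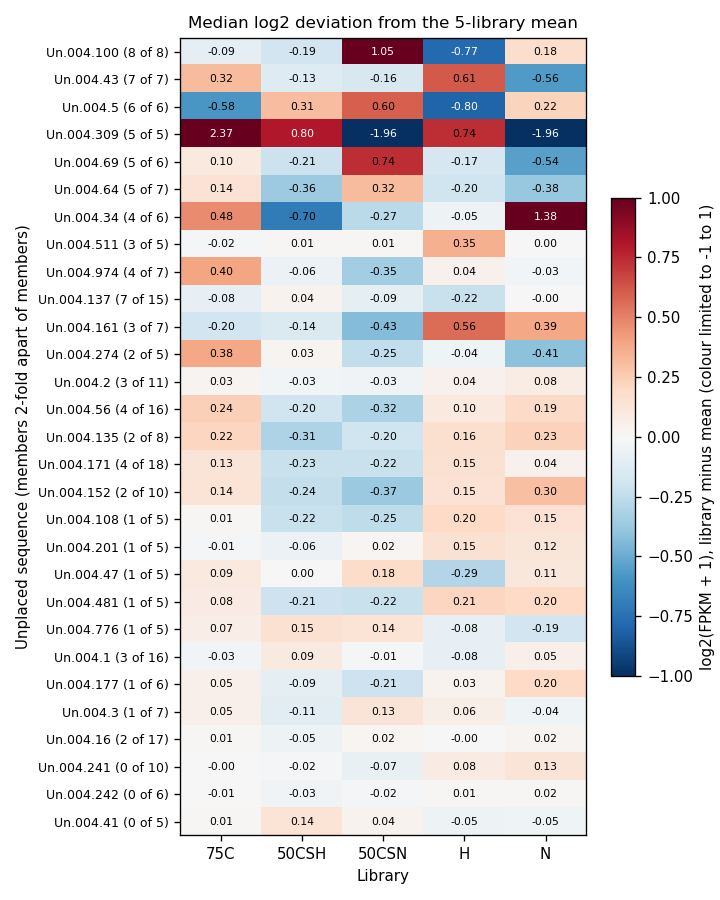
Median deviation of the kept loci from their 5-library mean on the log2(FPKM + 1) scale, for the 29 unplaced sequences with at least 5 kept loci (rows, with how many of the kept loci were 2-fold apart) in the 5 libraries (columns), with the colour limited to -1 to 1. The largest deviations are 2.37 in 75C and -1.96 in 50CSN and N on Un.004.309, while the last 4 rows stay within 0.14 of 0.

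Of the 895 loci, 218 (24.4%) shared their listed span with another locus of the assembly, against 37.3% on chromosomes. No strand-marking step is named in the labels, so whether reads of loci that overlap on opposite strands could be told apart is unknown. The estimates behind FPKM divide reads between overlapping loci by a model. How reads of near-identical loci were shared out was not stated. At 71 spans 2 or more kept loci lay together, and 34 of these spans held a locus with a 2-fold range. The sum over the span also had a 2-fold range in 16 of the 34, and not in the other 18. Un.004.43:126218-546945 is one of the 18. XLOC_029870 (ENSBTAT00000035479) was there at 9.27 FPKM in 75C, 12.1 in 50CSH and 5.71 in 50CSN, and at 10.3 in H and 2.68 in N. XLOC_029871 was at 11.6 FPKM in 75C, 10.1 in 50CSH and 24.7 in 50CSN, and at 27.7 in H and 21.5 in N.

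The other 2 loci of the span, XLOC_029872 and XLOC_029875, also had a range of at least 1 on the log2 scale. Summed, the span was at 40.6 FPKM in 75C, 44.8 in 50CSH and 41.6 in 50CSN, and at 49.3 in H and 45.0 in N, a range of 0.27. In the adjoining span Un.004.43:34920-125134 the sum itself varied, with 205 FPKM in 75C, 38.7 in 50CSH and 44.4 in 50CSN, and 235 in H and 5.57 in N. There XLOC_029874 was at 197 FPKM in 75C, 25.3 in 50CSH and 34.7 in 50CSN, and at 226 in H and a listed 0 in N. On Un.004.171, XLOC_028529 (ENSBTAT00000060159) was at 32.7 FPKM in 75C, 18.7 in 50CSN and 45.3 in N and was listed at 0 in 50CSH and H, while XLOC_028528 of the same span held most of the sum in all 5 libraries.

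**Figure D5:**
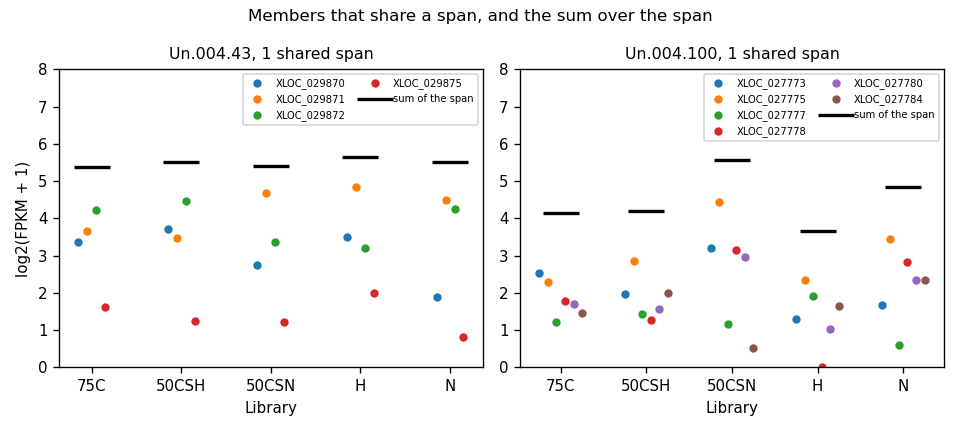
Level as log2(FPKM + 1) of the kept loci that share a span on Un.004.43 (left, 4 loci) and Un.004.100 (right, 6 loci) in each library, with 1 coloured dot per locus, set side by side, and a black bar for the sum of all listed loci of the span. On the left the bars lie within 0.27 of each other while each locus ranges by more than 1, and on the right the bars range by 1.90 with the highest in 50CSN.

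At the 92 unplaced loci at least 2-fold apart between H and N, 75C was nearer H at 55 (59.8%), 50CSH at 53 (57.6%) and 50CSN at 38 (41.3%). At the 368 such chromosomal loci, 75C was nearer H at 225 (61.1%), 50CSH at 186 (50.5%) and 50CSN at 192 (52.2%). The crossbred value lay between the 2 purebred values at 60 unplaced loci in 75C (65.2%), 53 in 50CSH (57.6%) and 62 in 50CSN (67.4%). On chromosomes it did so at 62.5% of loci in 75C, 62.8% in 50CSH and 66.8% in 50CSN. The unplaced shares of values in between were thus near those of chromosomal loci. The labels' ancestry and these positions were not tested against each other, since each cross has 1 library.

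Among loci above 0 in all libraries, the widest differences of H over N were at XLOC_030118 (Un.004.511:66861-67201), with 11.2 FPKM in H and 0.91 in N (2.67 on the log2 scale), and XLOC_028289 (Un.004.147:26441-156704), with 13.3 FPKM in H and 1.70 in N (2.40). XLOC_030559 (ENSBTAT00000014157, Un.004.692:40610-41063) was at 107 FPKM in 75C, 96.0 in 50CSH and 93.9 in 50CSN, and at 183 in H and 37.5 in N. All 3 crossbreds lay between the purebreds at this locus. The widest in the other direction was XLOC_028168 (ENSBTAT00000027844, Un.004.137:89485-90489), with 0.54 FPKM in H and 12.1 in N (-3.09), while the crossbreds lay between 0.15 and 0.51 FPKM.

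Between the reciprocal crosses, XLOC_030472 (Un.004.661:68926-74163) was at 6.54 FPKM in 50CSH and 0.23 in 50CSN (2.62 on the log2 scale), with at most 0.43 FPKM in 75C, H and N. It passed the filter on level through 50CSH alone. XLOC_030504 (Un.004.6769:5076-5701) was at 0.88 FPKM in 50CSH and 8.55 in 50CSN (-2.34). The highest expressed of the named loci lower in 50CSH was XLOC_030290 (ENSBTAT00000024424, Un.004.579:38467-39080), with 160 FPKM in 75C, 139 in 50CSH and 562 in 50CSN, and 123 in H and 179 in N. 50CSN alone was high there, and the other 4 libraries lay between 123 and 179 FPKM.

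75C stood apart at several unannotated loci. XLOC_029076 (Un.004.2584:7009-7420) was at 94.7 FPKM in 75C, 15.4 in 50CSH and 5.07 in 50CSN, and at 38.0 in H and 22.7 in N. XLOC_030263 (Un.004.5653:1670-1918) was at 51.8 FPKM in 75C, 7.13 in 50CSH and 2.51 in 50CSN, and at 16.7 in H and 18.1 in N. XLOC_029249 (Un.004.2853:9234-9392) was at 318 FPKM in 75C, 79.5 in 50CSH and 35.7 in 50CSN, and at 126 in H and 105 in N. At all 3 the order was 75C, then the purebreds, then 50CSH and 50CSN. The annotated XLOC_029247 (ENSBTAT00000059567), which ranked above XLOC_029249 by this difference, did not have that order. It was at 25.9 FPKM in 75C, 9.41 in 50CSH and 0.92 in 50CSN, and at 7.69 in H and 6.88 in N.

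Pairings of highest and lowest library were counted among the 89 loci with a 4-fold range, where the lowest library was a single one. Loci with listed zeros tied for lowest were left out, so the order of pairings holds for loci without such ties only. The pairing of 75C as highest with 50CSN as lowest library was then the most frequent. It was found at 12 loci, on 12 different sequences, and 9 of the 12 had no Ensembl ID. The next most frequent, N highest and 50CSH lowest, had 10. Pairings were not counted on chromosomes, so whether this order is particular to unplaced loci was not tested. In the opposite direction XLOC_029218 (ENSBTAT00000018855, Un.004.2779:9375-10205) was lowest in 75C, with 53.7 FPKM in 75C, 221 in 50CSH and 294 in 50CSN, and 313 in H and 201 in N. 75C was the single library at least 2-fold below the others at 2 unplaced loci.

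The comparison of the 3 crossbred with the 2 purebred libraries asks what the crosses share, whatever their ancestry. Tested with limma over all 13871 kept loci, 1 of 895 unplaced loci passed an adjusted p of 0.05 (0.0288% of all loci did). XLOC_028706 (ENSBTAT00000059594, Un.004.2:1668325-1810570) was listed at 0 in 75C, 50CSH and 50CSN and was at 26.3 FPKM in H and 21.0 in N, with a limma adjusted p of 0.0017. With 3 listed zeros, the spread of this locus came from H and N alone. When 75C, 50CSH, 50CSN or N was left out, 1 unplaced locus passed, without N with H as the only purebred library. Without H, limma passed 4, XLOC_028706 and the 3 loci above 0 in N alone. That fit sets N as the only purebred library against 3 listed zeros, so these loci have no spread of their own, N is assumed to vary like the crossbreds, and the 4 are no sign of a difference between the groups.

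Other loci of the same span did not share the zeros. XLOC_028705 (ENSBTAT00000047860) lay between 8.68 and 9.80 FPKM, and XLOC_028717, with 3 Ensembl IDs, was at 24.4 FPKM in 75C, 22.3 in 50CSH and 24.6 in 50CSN, and at 28.7 in H and 31.7 in N. Summed over the span, the level was 34.1 FPKM in 75C, 30.9 in 50CSH and 33.6 in 50CSN, and 64.2 in H and 62.5 in N, a difference of -0.93 ± 0.08 (SE) with a limma adjusted p of 0.079 over spans. Among loci averaging 5 FPKM or more the limma adjusted p of XLOC_028706 was 0.051, and in the other fits per locus it lay between 0.00096 and 0.035. No unplaced span and none of the loci above 0 in all 5 libraries passed (0 in limma, with 147 spans and 179 loci at an unadjusted p of at most 0.05). Whether the zeros are failed estimates was not tested.

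Without an adjustment for the number of loci, 80 unplaced loci were higher in crossbreds at a limma p of at most 0.05 and 86 were lower, against 9.86% and 11.9% of all loci. Together these were 18.5% of unplaced loci, against 21.9% of chromosomal loci. All 3 crossbreds lay above both purebreds at 174 unplaced loci (21.0% of all loci did) and below both at 165 (22.3% of all loci did). The median difference was -0.01 over unplaced loci and -0.01 over chromosomal loci.

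The widest differences among loci above 0 in all libraries did not pass the adjusted threshold. XLOC_030066 (Un.004.495:97239-97461) averaged 12.5 ± 3.08 FPKM in crossbreds and 3.18 ± 0.38 FPKM in purebreds (SD, n = 3 and n = 2), a difference of 1.66 ± 0.22 (SE) with a limma adjusted p of 0.11. Its values did not overlap, with 15.0 FPKM in 75C, 9.04 in 50CSH and 13.3 in 50CSN, and 3.45 in H and 2.91 in N. XLOC_030416 (Un.004.638:5500-5655) came next, with a difference of 1.64 ± 0.47 (SE) and a limma adjusted p of 0.16. XLOC_028020 (Un.004.1195:10507-34509) averaged 3.29 ± 0.22 FPKM in crossbreds and 0.55 ± 0.43 FPKM in purebreds, with a limma adjusted p of 0.11.

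In the other direction, XLOC_027765 (Un.004.1:1926563-1955549) averaged 4.43 ± 2.45 FPKM in crossbreds and 16.5 ± 1.35 FPKM in purebreds, a difference of -1.79 ± 0.38 (SE) with a limma adjusted p of 0.12. XLOC_029059 (Un.004.2542:2887-8698) averaged 1.19 ± 0.56 FPKM in crossbreds and 5.43 ± 1.27 FPKM in purebreds, with a limma adjusted p of 0.11. XLOC_029702 (Un.004.3883:10683-10925) ranked above it, with a difference of -1.60 ± 0.81 (SE) and a limma adjusted p of 0.31. There 75C, at 19.6 FPKM, lay between H at 14.6 FPKM and N at 25.3 FPKM. XLOC_028168 averaged 0.35 ± 0.18 FPKM in crossbreds and 6.30 ± 8.15 FPKM in purebreds, but only N was high, and H, at 0.54 FPKM, lay next to 50CSH at 0.51 FPKM. The nearest to the threshold was XLOC_028133 (ENSBTAT00000026048, Un.004.1339:6518-26580), named for its p-value, with 3.02 FPKM in 75C, 3.48 in 50CSH and 4.01 in 50CSN, and 11.0 in H and 11.7 in N, a difference of -1.46 ± 0.14 (SE) with a limma adjusted p of 0.082.

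Some abundant loci also had crossbred and purebred values without overlap. They were picked after their values were seen, as the 6 with the lowest p-values among loci averaging 30 FPKM or more. XLOC_028686 (Un.004.196:7309-7445, no Ensembl ID) averaged 964 ± 65.7 FPKM in crossbreds and 537 ± 51.8 FPKM in purebreds, a difference of 0.84 ± 0.13 (SE). XLOC_027922 (ENSBTAT00000039021, Un.004.11:806271-806990) averaged 138 ± 17.2 FPKM in crossbreds and 84.8 ± 0.43 FPKM in purebreds, a difference of 0.69 ± 0.12 (SE). XLOC_029659 (ENSBTAT00000047705, Un.004.374:53748-55571) was the only one of the 6 lower in crossbreds, with 66.0 ± 4.63 FPKM against 95.4 ± 11.5 FPKM in purebreds. Their limma adjusted p-values lay between 0.11 and 0.12, so none passed.

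The authors' deposited table, which tests each transcript, also held an excess between single libraries, though most of its unplaced calls have a 0 on one side. Its size differed widely by pair. In 75C against 50CSH 0.510% of unplaced and 0.0318% of chromosomal transcripts were called, and in 50CSH against H 0.251% and 0.172%. Chromosomal calls with a 0 on one side were not counted. Of the 430 calls it makes over the 10 pairs, at a q-value of at most 0.05, 105 (24.4%) were of unplaced transcripts, which made up 5.31 to 5.49% of the transcripts tested in each pair. The pairs share libraries, so these calls are not independent, and those of the authors' deposited table came from 39 transcripts of 35 loci, 24 of them among the 895. Between H and N the authors' deposited table calls 12 unplaced transcripts of 30 (0.0796% of all transcripts tested were called), 10 of which have a 0 on one side. Between 50CSH and 50CSN the authors' deposited table calls 7 of 17 (0.0477% of those tested), 3 of which have a 0 on one side. For 75C against 50CSH the authors' deposited table has 10 unplaced calls of 21 (0.0574% of those tested), 75C against 50CSN 12 of 31 (0.0849%) and 75C against H 4 of 28 (0.0758%). It has 20 of 69 for 75C against N (0.183%), 5 of 65 for 50CSH against H (0.176%), 17 of 57 for 50CSH against N (0.151%), 6 of 58 for 50CSN against H (0.157%) and 12 of 54 for 50CSN against N (0.144%) in the authors' deposited table. The unplaced share of its calls was thus highest where 75C met 50CSH and lowest where 50CSH met H. In the authors' deposited table a 0 on one side marked 8 unplaced calls for 75C against 50CSH and 10 against 50CSN. It marked 2 for 75C against H and 17 for 75C against N. It marked 4 for 50CSH against H, 14 for 50CSH against N, 5 for 50CSN against H and 9 for 50CSN against N. Outside 50CSH against 50CSN and 75C against H, most unplaced calls in each pair thus had a listed 0, which can be a failed estimate.

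In the authors' deposited table the pooled comparison has 34 unplaced transcripts among 347 called (0.936% of those tested), 11 higher and 23 lower in crossbreds, and 19 of them listed at 0 on one side. The 34 include transcripts of 18 kept loci, among them XLOC_027922, XLOC_028388 and XLOC_030290 with higher and XLOC_028530 with lower crossbred means. At XLOC_030290 only 50CSN, at 562 FPKM, stood above both purebreds, while 75C at 160 FPKM and 50CSH at 139 FPKM lay below N at 179 FPKM. XLOC_028706 was not among the 18. XLOC_028388 (ENSBTAT00000010788, Un.004.1590:26766-30801) was at 240 FPKM in 75C, 413 in 50CSH and 438 in 50CSN, and at 238 in H and 232 in N, so that the 50% crosses stood apart and 75C did not. XLOC_028530 (ENSBTAT00000055244, Un.004.171:180134-187486) was at 221 FPKM in 75C, 195 in 50CSH and 230 in 50CSN, and at 347 in H and 289 in N.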

How the data were processed

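Leukocytes from the buffy coat of cattle blood were sequenced as poly(A) RNA from both ends, with 1 library for each of 5 populations, per the labels' protocols. The submitters' processing notes name TopHat2 2.0.9 and Cufflinks 2.2.1.0. Which build and annotation these ran on, with which settings, and how multiply matching reads were shared out was not stated by these sources. What the authors deposited was FPKM per assembled transcript, in tables with the columns of a Cuffdiff comparison, where each tested transcript also has its p-value and q-value. Their calls are tested transcripts with a q-value up to 0.05, and the smallest p-value among the unplaced calls is 5e-05.

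Transcripts were summed per locus, and placed and unplaced loci averaging 1 FPKM or more were kept. Pairs of libraries were described without a test. The 3 crossbreds were set against the 2 purebreds with limma 3.58.1 (R 4.3.3), which was given a trend of variance on mean, and p-values were adjusted by Benjamini-Hochberg over 13871 loci. The fit was tested on simulated data with normal noise. These data held no listed zeros, so the simulation does not cover loci such as XLOC_028706, nor populations that stand in for replicates. No scaling was added to the deposited FPKM. Starts are counted from 1. Other steps used pandas 2.3.3, numpy 2.4.6 and matplotlib 3.10.9 under Python 3.11.15.

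The unplaced loci and the lists were chosen with earlier results of these data known. Loci were named by rule: those past the adjusted threshold, the highest means, the widest differences among loci above 0 in all libraries, the highest means among loci listed at 0 in a library, the authors' calls with the highest means, the smallest ranges and the edge of the rule on levels. Not every locus of these lists is described, and some were passed over for loci ranked lower. Loci described for their sequence or span were chosen after their values were seen. Alternatives were a pseudocount of 0.1, median-of-ratios and quantile scaling, values per transcript, other filters on level, other limma settings and leaving out each library. Values summed per span and shares without the highest locus were added after the data were seen. Relative depth came from the most frequent ratio of low values of single-transcript loci, and the counting error is unknown. No sequence is printed, since none of the files' build was at hand.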

Additional observations from a re-analysis of the deposited data

How the results depend on the processing

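No paired analysis was possible because each population has 1 library and the replicate numbers pair no samples. The 121 recomputed differences cover XLOC_028706 and, among loci above 0 in all 5 libraries, the 5 widest crossbred differences in each direction. Over the other pseudocount, scalings, unit, limma settings and left-out libraries, these kept their direction. In fits with both purebreds they also kept their side of the threshold. Loci named for other reasons were not recomputed in this way. Filters on level were not among the settings, and with a mean of 5 FPKM or more XLOC_028706 had a limma adjusted p of 0.051. Sizes moved at some loci. Without N, the difference went from -1.74 to -0.20 at XLOC_028168, but only from 1.66 to 1.57 at XLOC_030066 and from -1.79 to -1.71 at XLOC_027765. The count of unplaced loci past the limma adjusted p of 0.05, 1 in the report, was 0 with a mean of 5 FPKM or more, 0 with loci above 0 in all 5 libraries and 0 with values summed per span, where limma gave 119, 179 and 147 at an unadjusted p of at most 0.05. It was 2 at an adjusted p of 0.1. Leaving out 1 library at a time gave 1 to 4. The 4 came without H, where N is the only purebred library and all 4 loci are listed at 0 in the 3 crossbreds, so that count says nothing of stability. The median difference was 0.041 with quantile normalization and lay between -0.04 and 0.01 without 1 library.

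Counts of unplaced loci 2-fold apart moved with the unit, the filter and the pseudocount. Per transcript they were 215 for H against N, 192 for 50CSH against 50CSN, 218 for 75C against 50CSH, 225 for 75C against 50CSN, 191 for 75C against H, 208 for 75C against N, 260 for 50CSH against H, 270 for 50CSH against N, 276 for 50CSN against H and 247 for 50CSN against N. With a mean of 5 FPKM or more they were, for the same pairs, 45, 39, 48, 45, 38, 57, 56, 63, 69 and 61. With a pseudocount of 0.1 they were 128 for 75C against 50CSH, 136 for 75C against 50CSN, 132 for 75C against H, 161 for 50CSH against H, 177 for 50CSH against N and 164 for 50CSN against N. With no filter on low values, 142 were apart between H and N. The stricter filter also leaves fewer loci, 537 in place of 895. The balance of higher and lower loci turned at a mean of 5 FPKM or more in H against N (25 higher, 20 lower), 50CSH against 50CSN (22 and 17) and 75C against N (34 and 23). It also turned in 50CSH against 50CSN per transcript (99 and 93) and per span (36 and 33), and in 75C against N with quantile normalization (55 and 54), per span (47 and 44) and over loci above 0 in all libraries (45 and 39). Under every one of these settings, except no filter, for which it was not computed, the share among unplaced loci exceeded that among chromosomal loci in all 10 pairs, by 1.24 to 4.34 times.

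The share of summed FPKM was 3.21% in 75C, 3.28% in 50CSH, 3.12% in 50CSN, 3.53% in H and 3.39% in N over loci with an Ensembl ID, and 3.97, 4.13, 3.84, 4.46 and 4.20% in the same libraries without the highest locus. Unplaced loci listed at 0 in a library numbered 337 with no filter and 17 with a mean of 5 FPKM or more. The cause of these shifts was not tested. Depth in reads is unknown, so how far counting error sets the spread of low loci cannot be told.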

Other observations

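Further sequences with several 2-fold loci were chosen after their values were seen. On Un.004.69, 5 of 6 loci had a 2-fold range. XLOC_030551 (Un.004.69:303464-315464) was at 21.6 FPKM in 75C, 5.91 in 50CSH and 27.4 in 50CSN, and at 7.87 in H and 4.39 in N. XLOC_030546 in the same span was at 10.9 FPKM in 75C, 6.04 in 50CSH and 14.3 in 50CSN, and at 11.2 in H and 2.53 in N. 50CSN was highest and N lowest at both.

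On Un.004.161, which held 7 kept loci, 4 neighbouring loci were higher in the purebreds than in any crossbred. That order was common, at 18.4% of unplaced and 22.3% of all kept loci. XLOC_028425 (Un.004.161:153953-154947) was at 0.53 FPKM in 75C, 1.04 in 50CSH and 0.49 in 50CSN, and at 3.69 in H and 2.2 in N. XLOC_028424 and XLOC_028426 on its 2 sides had the same groups without overlap, as had XLOC_028421 (ENSBTAT00000027132, Un.004.161:170590-216674), with 1.44 FPKM in 75C, 1.04 in 50CSH and 1.27 in 50CSN, and 6.53 in H and 4.38 in N. XLOC_028420 (ENSBTAT00000003821) of the same sequence lay between 57.4 and 79.6 FPKM and did overlap.

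On Un.004.692, all 3 annotated loci kept had a 2-fold range, each in its own order. XLOC_030557 (ENSBTAT00000032988) was at 9.23 FPKM in 75C, 6.41 in 50CSH and 1.5 in 50CSN, and at 10.7 in H and 1.66 in N. XLOC_030561, with 3 Ensembl IDs, was at 69.7 FPKM in 75C, 12.4 in 50CSH and 15.0 in 50CSN, and at 46.1 in H and 29.2 in N. XLOC_030559, between them, was highest in H and lowest in N.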
